A study of Mus musculus with 15 samples.

Results

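Transcription from ultraconserved elements was followed through mouse liver development with probes for both strands of each element. An element strand was included when its probe lay well above background on every one of the 3 arrays of some stage, a rule that used detection and no difference between stages. Of 962 probes for 481 elements, 329 met it, 164 on the plus strand and 165 on the minus strand. These came from 256 elements, of which 73 had both strands included, 91 only the plus strand and 92 only the minus strand. The other 225 elements had neither strand included.

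Ultraconserved elements are long stretches of the genome that are identical in human, mouse and rat. Many lie near genes that regulate development and can act as enhancers, and others overlap exons of genes for RNA-binding and splicing proteins. Some are transcribed, from either strand, into RNAs known as transcribed ultraconserved regions, whose levels differ between tissues and change in cancers. The probe names carry the element number and a sign for the strand. The files give no sequence, position or neighbouring gene for these probes, so no host gene or role is assigned to an element here, and which genome strand each sign stands for is not given in the sources used here.

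Livers came from C57BL/6 mice, an inbred strain, at 3 embryonic stages named by the day of gestation (E12.5, E14.5, E17.5), from newborns (neonatal) and from adults at 8 weeks, with 3 arrays per stage and 15 in all. No group carried a transgene, mutation or treatment. The embryonic liver makes blood cells, and its metabolic functions mature around and after birth. Total RNA was depleted of ribosomal RNA and labelled by random priming, and whether the labelling kept strand is not given in the sources used here. No label says if a stage's arrays stand for separate animals or for pools, so the spread behind the p-values may be technical. In RNA from whole liver, fewer cells of a type and less RNA per cell cannot be told apart.

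A level below is the log2 processed signal of a probe minus the 75th percentile of its own array, so 0 lies at that percentile, and levels are compared only within a probe. The file headers gave 2 scan dates, and the arrays of each were taken to lie on 1 slide, so slide below stands for scan date. Slide 1 held E12.5, E14.5 and replicates 1 and 2 of E17.5, and slide 2 held E17.5 replicate 3, neonatal and adult. Slide and stage thus overlap, and only the 3 E17.5 arrays link the slides. E17.5 replicate 1 stood apart: 80.9% of its noncontrol spots were well above background, against 50.9% to 62.9% on the other 14 arrays, and so were 55.8% of its negative-control spots, against 4.0% to 9.58%. Few cell type markers had a probe with a gene name. Hmgcs1, a cholesterol synthesis enzyme of hepatocytes, was the only one of 10 hepatocyte markers on the array and was well above background on all 15 arrays, with means of 7.01, 7.34, 7.88, 5.76 and 8.86 over the stages in order. Of 9 erythroid markers only Tfrc, the transferrin receptor, had a probe, with a mean level of 5.50 in adult liver and 8.89 at E12.5. Amy2a5, the pancreatic amylase and 1 of 8 markers of exocrine pancreas, was on no E12.5 array and averaged -0.58, 5.56, 6.03 and 2.26 at the 4 later stages. The blood and immune list had 3 of 8 markers on the array (B2m, Ccl21b and Ccl21c), all well above background throughout. From E12.5 to adult liver B2m, a subunit of MHC class I, averaged 7.37, 7.68, 8.25, 8.81 and 10.05, Ccl21b 1.23, 1.72, 1.04, 0.06 and 2.45, and Ccl21c 2.15, 2.73, 2.11, 1.17 and 2.80 at the 5 stages. The part of these cell types in the changes of the element probes was not tested.

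Of the element probes 34.2% met the detection rule, beside 62.6% of all 59709 noncontrol probes. Probes named for mouse and human lincRNAs (long intergenic noncoding RNAs) met it at 35.9% and 33.5%, and probes for lincRNA exons at 54.2%. Probes of elements well above background on all 3 arrays of a stage numbered 240 at E12.5, 276 at E14.5, 222 at E17.5, 252 in neonatal and 257 in adult liver. Of the included probes 172 were well above background on all 15 arrays, while 41 met the rule at 1 stage alone. Those 41 comprised 16 at E14.5, 16 in adult liver, 7 in neonatal liver, 2 at E12.5 and none at E17.5. A higher level at that stage was in part set by the rule for these 41, so no p is given for such a difference of theirs. They had levels from -3.25 to -0.16 at that stage (median -2.62). Just outside the rule were 63 probes, with levels from -3.81 to -1.99 at their best stage (median -3.20). The best stage of those 63 had 2 of 3 arrays; another 289 probes reached 1 of 3 at best, and 281 were well above background on no array. No included probe was saturated, and 2 (uc.96+ and uc.481-) lacked a value on 1 or more arrays because of outlier spots, which the fit left out.

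Over the whole course, 188 of the 329 probes varied with stage by limma's moderated F test at an adjusted p under 0.05, or 57.1%, beside 61% of the 37363 probes tested on the array. The median distance between a probe's highest and lowest stage mean was 1.52 log2 units, beside 1.49 for all probes tested. It was at least 2 units for 114 element probes (34.7%, beside 33.4% of all probes tested) and at least 4 units for 21. The 188 varying probes peaked most often in adult liver (61), then at E14.5 (53), E12.5 (45) and E17.5 (19), and least often in newborns (10). Among all 329, the highest stage mean lay in neonatal liver for 8.81%, beside 16.4% of all probes tested, and at E14.5 for 26.4%, beside 20.6%. At E17.5, the stage with the array that stood apart, it lay for 12.2%, beside 7.32%. The shares were 21.6% at E12.5, beside 23.3%, and 31.0% in adult liver, beside 32.4%. With slide as a block the F test called 119 element probes, and with only the 172 probes detected on all 15 arrays it called 107. Counts under alternatives, here and below, are given without the share of all probes tested.

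Among the varying probes, 16 had a higher mean at every later stage and 8 a lower one. Such courses were not counted over all probes tested. The steadily rising ones were uc.113+, uc.215+, uc.238+, uc.340+, uc.432+, uc.83+, uc.86+, uc.18-, uc.38-, uc.177-, uc.258-, uc.287-, uc.298-, uc.300-, uc.448- and uc.474-. The steadily falling ones were uc.461+, uc.12-, uc.61-, uc.75-, uc.138-, uc.144-, uc.193- and uc.195-. For several of the rising probes E17.5 replicate 3, the E17.5 array on slide 2, lay near the neonatal arrays and away from the other E17.5 arrays. For uc.18- the neonatal levels were 1.74, 0.88 and 1.08, and the E17.5 levels were -1.69, -2.01 and 0.84, with 0.84 on replicate 3. For uc.340+ they were -1.07, -1.10 and -1.28 in neonatal liver and -5.38, -3.34 and -1.50 at E17.5, the last on replicate 3. With slide as a block (limma, adult against E12.5), rises of uc.83+ (4.56) and uc.298- (3.01) stayed called. Those of uc.18- (1.95), uc.258- (2.36), uc.300- (1.47) and uc.340+ (1.76) were lost, at adjusted p from 0.071 to 0.13, and uc.177- stood at -0.26. Falls of uc.12-, uc.75-, uc.138-, uc.193- and uc.195- stayed called. These are the listed probes of elements with both strands included.

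**Figure D1:**
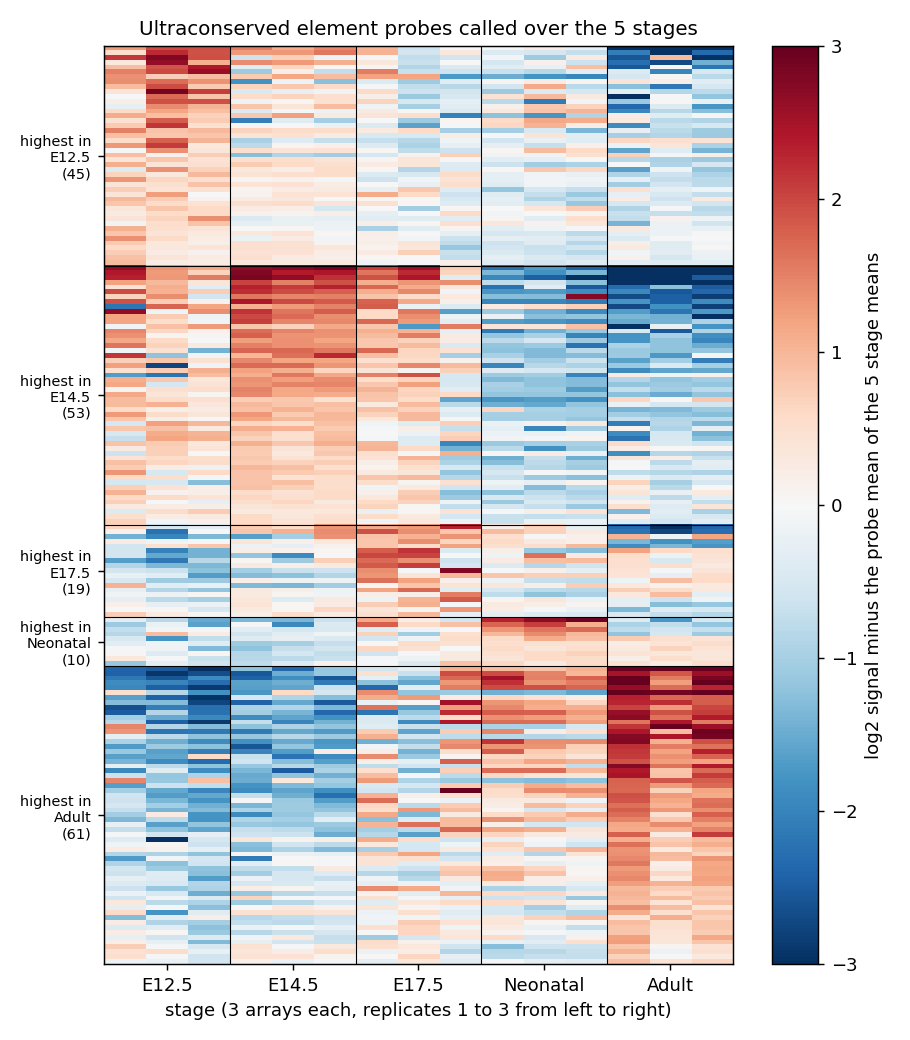
The 188 ultraconserved element probes that varied with stage, one row per probe and one column per array, stages from E12.5 to adult; colour is the level on the array minus the probe's mean of the 5 stage means (log2), and rows are grouped by the stage of the highest mean. The largest blocks are the 61 probes highest in adult liver and the 53 highest at E14.5, and the smallest is the 10 highest in neonatal liver.

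Adult liver differed from E12.5 liver for 159 of the 329 probes, 75 higher and 84 lower (limma, adjusted p under 0.05). That is 48.3% of the element probes, beside 50.8% of all probes tested (25.7% up and 25.1% down). The median log2 change was -0.07, beside -0.04 over all probes tested. Of the 159, 32 of those that rose and 16 of those that fell were well above background on no array of 1 of the stages. The 199 probes detected on all 3 arrays at both ends of the course included 32 that rose and 50 that fell.

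The largest rise among probes detected at both ends was that of the minus-strand probe of uc.18. It stood at 2.54, 0.81 and 3.05 in adult liver and at -2.34, -2.43 and -2.75 at E12.5, 24.9-fold higher in adult liver (log2 change 4.64, SE 0.66, limma adjusted p 5.03e-05). All 3 adult arrays lay far above all 3 E12.5 arrays, with the widest spread among the adult ones. Both probes of uc.188 rose: uc.188- averaged 5.75 ± 0.28 in adult liver and 3.12 ± 0.39 at E12.5 (SD, n = 3 each), and uc.188+ averaged 0.59 ± 0.14 in adult liver and -1.70 ± 0.71 at E12.5. The log2 changes were 2.63 (SE 0.28, adjusted p 3.12e-06) and 2.29 (SE 0.34, adjusted p 7.07e-05). Rises were also called for uc.460- (3.09, adjusted p 0.0088), uc.448- (2.57, adjusted p 0.000366) and uc.427+ (2.26, adjusted p 0.00563). The E12.5 levels of uc.460- differed among themselves: replicate 1 stood at 3.24 and the other arrays at -0.29 and -0.23, so that its stages overlapped.

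Some probes went from background to clear signal. For these only a lower bound of the fold is given, the mean of the bright stage over a floor for the dim stage; on each dim array the floor is whichever was larger, the probe's own signal or the weakest signal of any probe called well above background there. The adjusted p beside a bound belongs to the measured difference. The plus-strand probe of uc.83 was well above background on no E12.5 or E14.5 array, at levels between -5.89 and -3.72. It reached -3.10, -2.86 and -1.48 at E17.5. Neonatal arrays gave -1.61, -1.71 and -1.48, and adult arrays 0.89, 0.47 and 0.87. It was at least 3.86 log2 units higher in adult than in E12.5 liver (limma adjusted p 5.11e-08), and its adult arrays lay above those of every other stage. At least 8.24-fold higher was uc.30+, at 0.49, -1.0 and 0.28 in adult liver and between -5.12 and -4.46 at E12.5 (adjusted p 2.18e-05). The third largest bound, at least 8.18-fold, was that of a probe described with the elements studied in human liver.

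The largest fall among probes detected at both ends was that of uc.136+. Its levels were -0.35, -0.33 and -0.42 in adult liver and 3.92, 3.69 and 3.09 at E12.5, a log2 change of -3.93 (SE 0.27, adjusted p 3.42e-08), or 15.2-fold lower in adult liver. The adult arrays were nearly equal and far from the E12.5 ones. Next came uc.355+, at -0.27, -0.88 and -0.69 in adult liver and 3.62, 2.72 and 2.39 at E12.5 (log2 change -3.52, SE 0.38, adjusted p 4.23e-06). The plus-strand probe of uc.97 averaged -1.26 ± 0.19 in adult liver and 1.18 ± 0.32 at E12.5 (SD, n = 3 each), 5.45-fold lower (adjusted p 2.11e-06). Falls of 2.24 to 2.41 log2 units were called for uc.324-, uc.285+ and uc.77-. Down to background in adult liver went uc.468-, at -5.34, -5.98 and -5.43 there and 0.79, -0.33 and -0.93 at E12.5, at least 9.40-fold lower (adjusted p 2.04e-07). The same held for uc.195- (at least 8.23-fold lower, adjusted p 6.34e-08) and uc.358- (at least 6.84-fold lower, adjusted p 1.90e-05).

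With slide as a block, which here takes the slide difference from the E17.5 arrays alone, 93 element probes were called between adult and E12.5 liver (53 up and 40 down), 65 of them among the 159 and in the same direction. The E17.5 arrays include replicate 1, which stood apart, so a lost call cannot be read as an effect of slide alone. Values under the block are fitted log2 changes, no bounds, also for probes with a stage at background. Named calls kept were those of uc.83+ (log2 change 4.56), uc.30+ (2.20), uc.188- (2.63), uc.188+ (2.70), uc.136+ (-4.12), uc.355+ (-2.17), uc.97+ (-2.90), uc.77- (-1.66), uc.468- (-4.16), uc.195- (-4.66) and uc.358- (-2.22). Lost were uc.18- (1.95, adjusted p 0.094), uc.460- (1.95, adjusted p 0.38), uc.448- (0.80, adjusted p 0.33), uc.427+ (1.87, adjusted p 0.22), uc.324- (-1.90, adjusted p 0.14) and uc.285+ (-2.49, adjusted p 0.057). Under normexp background correction, which adds an offset of 50 to every signal, changes of probes near background shrank, for example to 2.42 for uc.83+, 1.76 for uc.30+, -1.83 for uc.468-, -1.51 for uc.195- and -1.40 for uc.358-, with the calls kept.

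Between E12.5 and E14.5 few element probes changed: 10 were called, 3 up and 7 down (3.04% of the 329, beside 4.93% of all probes tested, 1.82% up and 3.11% down), and 51 had an unadjusted p under 0.05. The clearest fall was that of uc.452-, at -3.25, -1.59 and -2.68 at E14.5 and -0.02, 0.24 and -0.08 at E12.5 (log2 change -2.56, SE 0.36, limma adjusted p 0.0011). Its later levels lay between those stages, from -2.49 to -1.04. The minus-strand probe of uc.408 averaged 1.58 ± 0.30 at E14.5 and 3.39 ± 0.63 at E12.5 (SD, n = 3 each; adjusted p 0.00367), and returned to 2.80 ± 0.11 in adult liver. A fall was also called for uc.34+ (-1.66, adjusted p 0.0116) and uc.324- (-2.05, adjusted p 0.0321). All 3 probes that rose came out of background: uc.180- (at least 1.36-fold higher at E14.5), uc.87- (at least 1.16-fold), both included through E14.5 alone, and the probe of the liver list (at least 1.13-fold, adjusted p 0.0396). All E12.5 and E14.5 arrays lay on slide 1, and among its arrays alone 9 probes were called. The count was 23 without E12.5 replicate 1 and 18 without E17.5 replicate 3, which lends only to the shared spread, but 6 without E12.5 replicate 2, 6 without E12.5 replicate 3, and 2, 6 and 4 without E14.5 replicates 1, 2 and 3.

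From E14.5 to E17.5, 22 element probes changed, 20 up and 2 down (6.69%, beside 7.11% of all probes tested, 6.29% up and 0.814% down). Both probes of uc.188 led the rises among detected probes. The minus-strand probe stood at 4.77, 5.56 and 5.16 at E17.5 and 3.29, 3.18 and 3.06 at E14.5 (log2 change 1.99, SE 0.28, limma adjusted p 0.000555). The plus-strand probe stood at 0.34, 0.97 and 0.24 at E17.5 and -1.82, -1.83 and -1.76 at E14.5 (2.32, SE 0.34, adjusted p 0.000795). Neither probe's stages overlapped, and the E17.5 array on slide 2 lay with those on slide 1. Rises were also called for the liver-list probe (1.78, adjusted p 0.00894), uc.472+ (1.24, adjusted p 0.00326) and uc.141+ (1.18, adjusted p 0.0454). Of the 20, 13 came from probes on no E14.5 array, led by uc.215+ (at least 2.69-fold), uc.320- (at least 2.45-fold) and uc.282- (at least 2.09-fold, adjusted p 0.00765). The falls were those of uc.195- (-1.25, adjusted p 0.0485) and uc.266+ (-1.13, adjusted p 0.0362).

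The split of the called element probes into up and down differed between settings at this step. No shares of all probes tested stand beside these counts, so they show no shift particular to the element probes. Quantile normalization gave 7 up and 9 down, normexp 19 up and 7 down, and the authors' value table, which holds 230 of the probes, 5 up and 4 down. Within slide 1 the count was 8, all up. Under leaving out E14.5 replicate 1, 2 or 3 it was 10, 9 or 12, all up, and the calls of uc.141+ and uc.195- were lost under most single omissions.

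Around birth most changes were falls. Neonatal liver differed from E17.5 liver for 47 element probes, 8 higher and 39 lower (14.3%, beside 18.1% of all probes tested, 8.4% up and 9.66% down), and the median log2 change was -0.23, beside 0.00 over all probes tested. The largest fall among probes detected at both stages was that of uc.425+, at -1.20, -0.65 and -1.36 in neonatal liver and 3.11, 3.60 and 1.79 at E17.5 (log2 change -3.90, SE 0.49, limma adjusted p 0.000196). It fell again to -2.71, -3.94 and -2.77 in adult liver, which made its stage means span 6.95 log2 units. Next among them were uc.355+ (-2.59, adjusted p 0.000581), uc.228+ (-2.29, adjusted p 0.00259), uc.136+ (-2.12, adjusted p 0.000192), uc.152- (-1.93, adjusted p 0.0391) and uc.400- (-1.87, adjusted p 0.00037). The neonatal levels of uc.400- were -2.30, -2.31 and -2.30 and those at E17.5 were -0.29, -0.46 and -0.55, so both stages were tight and apart. Of the 39 falls, 13 ended on no neonatal array, led by uc.358- (at least 5.17-fold lower), uc.177+ (at least 2.70-fold) and uc.312+ (at least 2.64-fold).

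The clearest rise at birth was that of uc.74-, at 1.16, 1.46 and 1.54 in neonatal liver and -0.52, -0.28 and -0.13 at E17.5 (log2 change 1.69, SE 0.24, adjusted p 0.000375). It was the reverse of the next step: the adult levels were -0.92, -0.72 and -0.85, so that the neonatal arrays stood above those of every other stage. Rises were also called for uc.18- (2.19, adjusted p 0.0345), uc.129+ (1.19, adjusted p 0.029) and, from background, uc.161+ (at least 1.30-fold, adjusted p 0.0161).

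For this step the median level of the arrays differed by slide, and the count differed with slide as a block. Scan date, software processing and the quality of single arrays cannot be told apart here. The median level of the element probes was -1.30 and -1.45 on E17.5 replicates 1 and 2, both on slide 1. It was -1.86 on E17.5 replicate 3 and -1.85, -1.89 and -1.99 on the neonatal arrays, all on slide 2. The slide block left 15 calls, 12 of them among the 47, and the slide 2 arrays alone, with 1 E17.5 array, gave 16. Kept under the block were uc.425+ (-2.86), uc.355+ (-1.69), uc.136+ (-2.24), uc.400- (-1.76), uc.358- (-2.22) and uc.74- (1.52). Lost were uc.18- (0.40), uc.129+ (0.50), uc.161+ (0.65), uc.228+ (-1.65), uc.152- (-0.32), uc.177+ (-0.94) and uc.312+ (-2.03), at adjusted p from 0.12 to 0.90. Without E17.5 replicate 3 the count was 116 (28 up and 88 down). It was 27 and 26 without E17.5 replicates 1 and 2, and 25 and 29 without neonatal replicates 2 and 3.

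From newborn to adult liver, 68 element probes changed, 33 up and 35 down (20.7%, beside 25.9% of all 37363 probes tested, of which 4675 rose and 4989 fell), with a median log2 change of 0.30, beside 0.17. All neonatal and adult arrays lay on slide 2. The plus-strand probe of uc.213 stood high in adult liver: its adult levels were -0.78, -1.21 and -1.10, and on the other 12 arrays it was well above background only on E17.5 replicate 1. Neonatal levels were -5.51, -5.44 and -5.67, and the adult level was at least 5.15-fold higher. Bounds of 2.96-fold for uc.318- and 2.61-fold for uc.353+ likewise set adult over neonatal liver. Well above background on the 3 adult arrays and on no other array, these probes, like uc.213+, met the inclusion rule through adult liver alone, so their adult signal is a description. Rises of detected probes were called for uc.83+ (2.34, adjusted p 0.00104), uc.188- (1.72, adjusted p 0.000395), uc.188+ (1.58, adjusted p 0.00344), the liver-list probe (1.53, adjusted p 0.00707), uc.117+ (1.53, adjusted p 0.00495) and uc.325- (1.52, adjusted p 0.0224).

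The falls to adult liver included uc.428+, a probe with its highest level in newborns. It stood at -3.22, -4.54 and -3.28 in adult liver and -0.49, -0.11 and 0.12 in neonatal liver, at least 9.28-fold lower. At E12.5 it was also on no array, and at E17.5 on 2 of 3. Likewise uc.256+ went to background in adult liver (at least 6.55-fold lower, adjusted p 0.000136), and so did uc.70+ (at least 2.71-fold). Neonatal liver alone had brought uc.428+ and uc.70+ into the set. Among probes detected at both stages the largest falls were those of uc.313- (-2.33, adjusted p 0.000143), uc.136+ (-2.24, adjusted p 2.50e-05), uc.74- (-2.22, adjusted p 8.24e-06), uc.77- (-2.07, adjusted p 0.000225), uc.285+ (-2.06, adjusted p 0.00724) and uc.163- (-1.95, adjusted p 4.32e-05). For uc.163- the adult levels were 0.48, 0.03 and 0.20 and the neonatal ones 2.44, 2.13 and 2.0.

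For named probes included through adult or neonatal liver alone, the inclusion rule in part set the difference, so a kept call lends no support. Each other named probe call of this step held with slide as a block (108 probes called) and within slide 2 (114 called). The count was 108 without E17.5 replicate 3, 37 and 40 without neonatal replicates 2 and 3, and 36 and 38 without adult replicates 1 and 3. The call of uc.325- was lost without each of those last 4 arrays (1.37 to 1.51, adjusted p 0.064 to 0.083), and that of uc.70+ under normexp (-0.55).

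**Figure D2:**
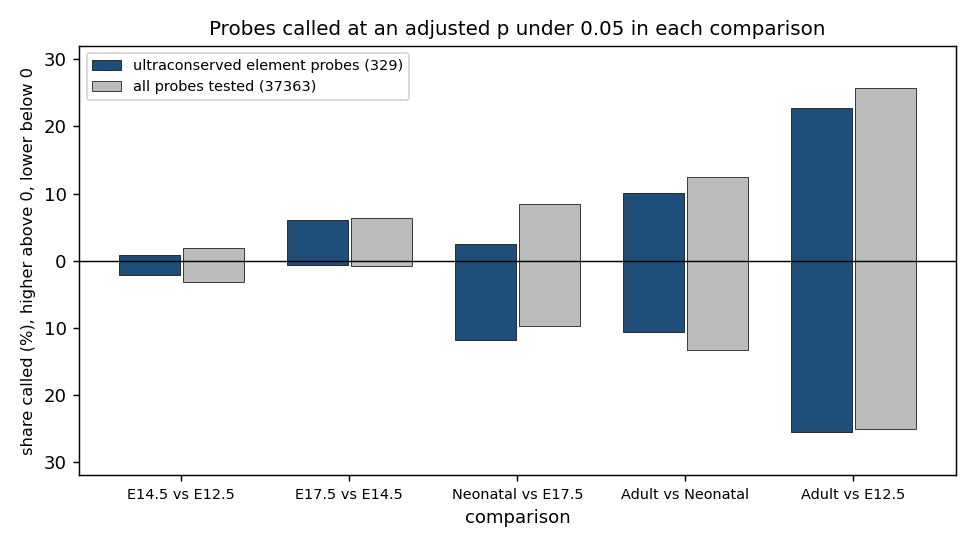
Percent of probes called up (above 0) and down (below 0) in each comparison, for the 329 ultraconserved element probes and beside them all 37363 probes tested. The shares of the element probes lie near those of all probes at most steps. Between neonatal and E17.5 liver 2.43% of the element probes rose and 11.9% fell, beside 8.40% and 9.66% of all probes. Only E17.5 replicate 3 shared a slide with the neonatal arrays.

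Both strands could be compared for 73 elements. The test took the plus-strand probe minus the minus-strand probe on each array, where array scaling cancels, and asked whether that difference changed between stages. It does not say which strand is more abundant, since different probes differ in brightness. The probes of an element are named for its opposite strands, and whether they cover the same stretch is not given in the sources used here. They are read on the same arrays and are not independent of each other. Between adult and E12.5 liver the strands changed unequally for 36 of the 73 elements (49.3%; limma, adjusted over 73), 19 in favour of the plus strand and 17 of the minus strand, and over all 5 stages for 39 (53.4%). Several of the 36 had a strand on no array of E12.5 or of adult liver. With that stage at the floor their differences shrank, for example from 2.99 to 0.66 at uc.371 and from 2.22 to 0.75 at uc.91. Pairings of strands of different elements were not tested this way, so no share stands beside these. Single steps gave 1 element (1.37%) for E14.5 against E12.5, 4 (5.48%) for E17.5 against E14.5, 7 (9.59%) for neonatal against E17.5 and 5 (6.85%) for adult against neonatal liver.

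Of the 36 elements, 26 had 1 strand called, 6 had both called in opposite directions, 2 had both called in the same direction and 2 neither. Over all 73, both strands rose at uc.117, uc.173, uc.188, uc.300 and uc.325, and both fell at uc.101 and uc.193. With slide as a block only uc.188 and uc.193 had both calls left in that direction: uc.117- turned to a called fall (-2.33), and calls were lost for both probes of uc.173 (adjusted p 0.39 and 0.45) and uc.300 (0.072 and 0.071) and for uc.325- (0.10) and uc.101- (0.073). The probe uc.117- met the inclusion rule at 1 stage alone, where a higher level was in part set by the rule. In 40 of the 73 elements 1 strand was called and in 20 neither. Among those in which both rose, uc.300 was also among the 36, at -1.45, but uc.300- was on no E12.5 array, and with that stage at the floor the difference was 0.87. The difference at uc.188 was -0.34 (SE 0.32, adjusted p 0.41), its strands having risen by nearly the same amount.

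The opposite changes were plus up and minus down at uc.48, uc.141, uc.195, uc.213 and uc.419, and plus down and minus up at uc.177. At uc.195 the plus-strand probe stood at -0.82, -1.16 and -0.81 in adult liver and -2.07, -1.99 and -2.89 at E12.5. Its minus-strand probe stood at -5.19, -5.14 and -5.44 in adult liver, on no array above background, and -0.79, -0.11 and -0.14 at E12.5. On each strand the stages did not overlap, and the strand difference changed by 6.30 (SE 0.49, adjusted p 4.62e-07), or 4.43 with the adult minus strand at the floor. At uc.213 the plus strand appeared in adult liver, as above, while the minus strand stood at -5.38, -2.83 and -5.02 there and -1.91, -0.95 and -0.44 at E12.5. The difference changed by 7.09 (SE 0.94), or 5.40 at the floor, with the plus strand included through adult liver alone.

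The other opposite changes were smaller. At uc.419 the plus strand rose by 1.07 (adjusted p 0.0191) and the minus strand changed by -1.83 (adjusted p 0.00755), a difference of 2.90 (SE 0.46, adjusted p 0.000223). At uc.141 the changes were 0.96 (adjusted p 0.0261) and -1.05 (adjusted p 0.0153). At uc.48 the plus strand, on no E12.5 array, was at least 2.30-fold higher (adjusted p 0.00318) and the minus strand changed by -0.86 (adjusted p 0.0265). At uc.177 the plus strand changed by -1.23 (adjusted p 0.00522) and the minus strand, on no E12.5 array, was at least 3.34-fold higher (adjusted p 0.00261). The largest differences with only 1 strand called were at uc.83 (6.56, or 4.37 at the floor), uc.358 (5.85, or 3.85 at the floor), uc.340 (5.25, or 2.92 at the floor) and uc.258 (-3.94, or -1.61 at the floor). The minus strand of uc.258 was on no E12.5, E14.5 or E17.5 array and met the inclusion rule at 1 later stage alone. A higher level at that stage was in part set by the rule. At uc.340 the minus-strand probe was high at every stage, between 4.56 and 6.75 on the 15 arrays, while the plus-strand probe was well above background on no E12.5 or E14.5 array, on 1 of 3 at E17.5 and on all 3 of each later stage.

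With slide as a block 14 elements were called between adult and E12.5 liver, 10 of them among the 36 and in the same direction: uc.45, uc.46, uc.57, uc.83, uc.141, uc.152, uc.195, uc.213, uc.358 and uc.419. Under it uc.195 still had both strands called in opposite directions (2.09 and -4.66). So had uc.213 (5.03 and -3.27), but its plus strand was included through adult liver alone. The differences at uc.340 (1.70, adjusted p 0.15), uc.258 (-1.48) and uc.48 (1.68, adjusted p 0.12) were lost, that at uc.177 turned to 0.18 (adjusted p 0.88), and uc.419+ stood at -0.07. Restricting to the 23 elements with both probes detected on all 15 arrays left 13 called.

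**Figure D3:**
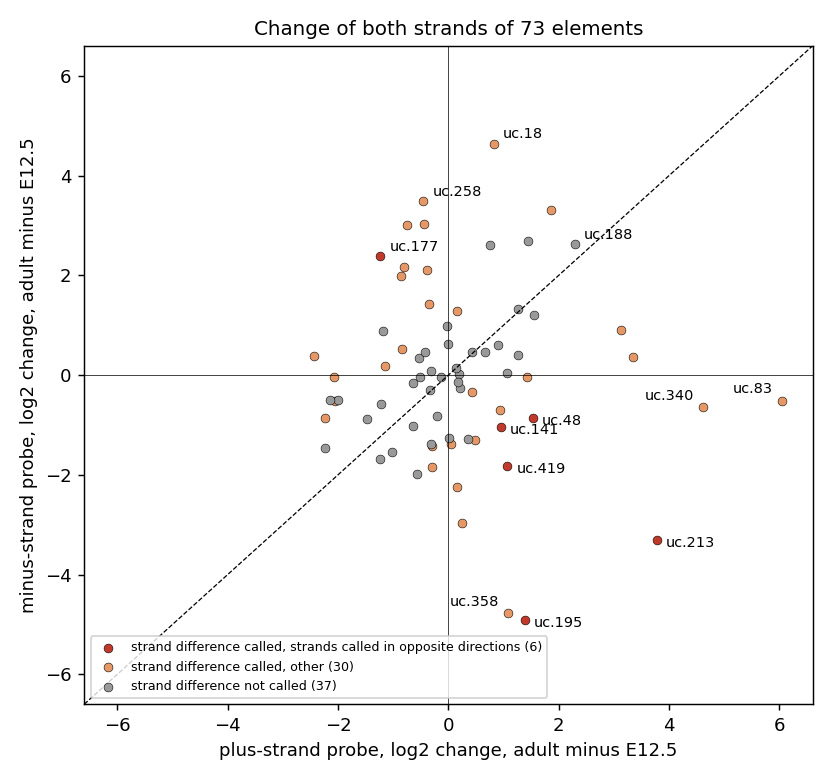
Change of the plus-strand probe (x axis) and the minus-strand probe (y axis) of 73 ultraconserved elements, each as the log2 change of adult minus E12.5 liver; the dashed line marks equal change. Red points are the 6 elements with strands called in opposite directions, orange points the other 30 with an unequal change, grey points the 37 without; uc.188 lies near the line and uc.213 and uc.195 far from it.

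The steps at which strands parted could be placed for some elements. At uc.452 the only strand difference of the first step was called (2.92, adjusted p 0.00402), as the minus strand fell at E14.5 and the plus strand stood at -0.12, -0.16 and -0.26 at E14.5 and -0.07, -0.80 and -0.76 at E12.5. From E14.5 to E17.5 differences were called at uc.356 (-1.85, or -0.70 with the dim stage at the floor), uc.48 (1.78), uc.45 (1.37) and uc.481 (-1.31), at adjusted p from 0.0243 to 0.0393; none of them was called with quantile normalization, the replicate block or within slide 1, nor without E17.5 replicate 1 (adjusted p 0.051 to 0.065). At birth uc.57 parted (2.91, adjusted p 0.00077, or 0.75 with neonatal uc.57- at the floor): uc.57- was at -5.50, -5.51 and -5.63 in neonatal liver and -1.77, -2.41 and -3.38 at E17.5, while uc.57+ stood between -2.75 and -1.80 on the same 6 arrays. The other named differences at birth, at uc.18, uc.340, uc.177, uc.312 and uc.101, were lost with slide as a block (adjusted p 0.38 to 0.97). From newborn to adult liver differences were called at uc.195 (4.14, or 2.27 with the dim stage at the floor), uc.77 (2.58) and uc.420 (1.85). Each of these held with slide as a block. Calls at uc.213 (6.20, or 4.05 at the floor) and uc.318 (-3.30, or -1.29) were in part set by the inclusion rule. The probes uc.213+ and uc.318- met that rule through adult liver alone. That at uc.420 was lost within slide 2 (adjusted p 0.0502) and without neonatal replicate 2 or 3 or adult replicate 1 or 3 (1.5 to 1.95, adjusted p 0.058 to 0.18).

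Across the 15 arrays the levels of the strands of an element had a median Pearson correlation of 0.13, from -0.80 at uc.177 to 0.96 at uc.188. The points share arrays, stages and slides, and the values are a description. The correlation exceeded 0.5 in 18 elements (24.7%, beside 16.9% of pairings of a plus strand with the minus strand of another element) and lay under -0.5 in 10 (13.7%, beside 14.4%).

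**Figure D4:**
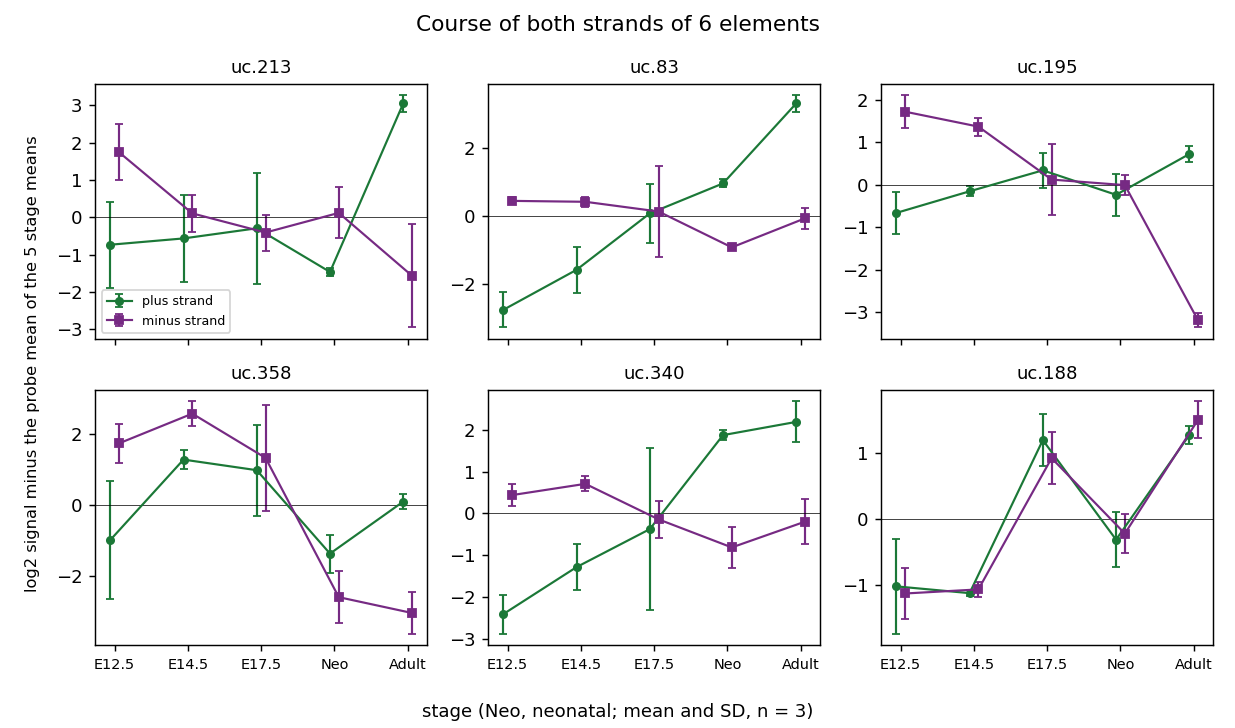
Stage means of the plus-strand (green) and minus-strand (purple) probes of uc.213, uc.83, uc.195, uc.358, uc.340 and uc.188, stages from E12.5 to adult on the x axis and the level minus the probe's own mean over the stages (log2) on the y axis; bars are the SD of 3 arrays. The strands of uc.188 rise together, and at uc.213 and uc.195 the plus strand is highest and the minus strand lowest in adult liver.

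A list of 5 elements studied in human liver disease and liver cancer had 4 included probes of 10. The element numbers of this list are not printed here. The probe named at several steps above is the minus-strand probe of 1 of them, and it rose through the course. It was on no E12.5 array (-3.66, -4.46 and -4.98). On the E14.5 arrays it stood at -2.56, -2.95 and -3.32, and on those of E17.5 at -0.93, -0.76 and -1.82. Neonatal arrays gave -1.42, -1.61 and -1.81, and adult ones 0.29, -0.32 and -0.23. The adult arrays lay above all others and the E12.5 arrays below all others. The rise of adult over E12.5 liver was at least 8.18-fold (limma adjusted p 3.68e-07), and with slide as a block the log2 change was 5.25. Its steps from E14.5 to E17.5 and from newborn to adult liver were called, while that from E12.5 to E14.5 lost its call under most single omissions (adjusted p up to 0.20). The plus-strand probe of the same element was well above background on no array, as were both probes of another element of the list.

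A pair of elements with consecutive numbers on the list each had a plus-strand probe well above background on all 15 arrays, and neither probe was called in any pairwise comparison. For 1 of them the F test was called (adjusted p 0.0343). Its levels were -1.15, -1.75 and -1.23 in adult liver, -2.72, -2.31 and -2.49 in newborns, and -1.36, -0.77 and -2.80 at E17.5, the last on slide 2. For the plus-strand and minus-strand probes of the other it was not (adjusted p 0.43 and 0.10). The remaining minus-strand probe of the pair was well above background on 3 arrays, and each probe of the last element on 1.

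The flattest of the 172 probes detected everywhere, by the SD of the stage means, were uc.456-, uc.244-, uc.46+, uc.111+ and uc.268-, with stage means spanning 0.29 to 0.43 log2 units. For uc.456- the 15 arrays ran from -0.88 to -0.07. For uc.268- they ran from 4.38 to 5.70.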

How the data were processed

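RNA from mouse liver was measured on 1-colour Agilent arrays, 15 in all. Spot intensity values were deposited on a linear scale, background-subtracted by Feature Extraction, version 11.0.1.1 per the file headers and 10.7.3.1 per the submitters' processing notes. Per the file headers, the software also applied a multiplicative detrending to the slide 2 arrays except adult replicate 2, and to no slide 1 array. The authors' deposited value table holds log2 values; its normalization is not given in the sources used here, and it served as an alternative.

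Control spots, probes named as negative controls and outlier spots were left out, spots of a probe were averaged, and the log2 processed signal, less the 75th percentile of its array, was tested with limma 3.58.1 (lmFit, eBayes, two-sided) in R 4.3.3. A single fit (15 arrays, stage means, no block) covered the 37363 probes that met the detection rule. Each comparison had its own Benjamini-Hochberg adjustment, and calls needed an adjusted p under 0.05. Strand differences were fitted likewise over 73 elements. The scripts were tested on simulated data. Signal over background stands for depth; the 75th percentile of the signal ran from 145 to 301, and 3 arrays per stage limit the precision.

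Stages and replicate numbers came from the sample titles, and slides were inferred from the scan dates in the headers. Named probes were, per comparison, up to 6 called in each direction with the largest change among those detected at both stages, up to 3 in each direction with the largest bound, up to 6 strand differences, all elements with opposite calls, the 5 flattest probes and the elements studied in human liver. The probes, lists and rules were chosen with earlier results of these data known. Alternatives were normexp (offset 50, on the median signals, as the files hold no mean signal), quantile normalization, a percentile over probes detected on all 15 arrays, the authors' table, a stricter filter and none, slide and replicate blocks, single slides, and leaving out each array. Probe sequences and positions were not used here.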

Additional observations from a re-analysis of the deposited data

How the results depend on the processing

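Of 92 named changes and strand differences, 49 kept their call and direction under every alternative that gave a value, and 1 reversed: the strand difference of uc.177 between adult and E12.5 liver, at 0.18 with slide as a block. The slide block ended 26 other named calls. Among the 49 kept were changes of probes that met the inclusion rule at 1 stage alone. A higher level at that stage was in part set by the rule. Normexp, which added an offset and also started from the median signals, moved 58 of the 92 by over 1.5 times and ended 9. The part of the offset was not separated from the other changes of that setting. For no setting was the cause tested.

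Element probes called moved as follows. The shares of all probes tested are not set beside these counts, so they show no shift particular to the element probes. For E14.5 against E12.5 (10 called) there were 17 with normexp, 6 with no filter and 18 with the slide block. For E17.5 against E14.5 (22) there were 9 in the authors' table, 7 among probes detected on all 15 arrays, 12 with no filter and 8 within slide 1. For neonatal against E17.5 (47) there were 27 among probes detected on all 15 arrays, 30 with no filter, 15 with the slide block and 16 within slide 2. For adult against neonatal (68) there were 108 with the slide block and 114 within slide 2. In that step the calls split as 36 up and 25 down with normexp and 66 up and 42 down with the slide block. For adult against E12.5 (159) there were 104 in the authors' table, 86 among probes detected on all 15 arrays and 93 with the slide block. The F test (188) gave 107 and 119 under the last of these settings.

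Strand differences called moved likewise. For E14.5 against E12.5 (1) normexp gave 5. For E17.5 against E14.5 (4) normexp gave 11, and quantile normalization, the authors' table, slide 1 alone and the replicate block gave 0, with 23 at an unadjusted p under 0.05 in limma as reported. For neonatal against E17.5 (7) normexp gave 4, the authors' values 3, the slide block 2, and both the probes detected on all 15 arrays and slide 2 alone 0. For adult against neonatal (5) normexp gave 10, and the authors' table and the probes detected on all 15 arrays 3 each. For adult against E12.5 (36) the authors' table gave 15, probes detected on all 15 arrays 13 and the slide block 14. The F test (39) gave 20, 12 and 14.

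Leaving out 1 array at a time gave 2 to 23, 9 to 28, 25 to 116, 36 to 108 and 128 to 174 probes for the comparisons in the same order and 154 to 225 for the F test. It gave 1 to 3, 0 to 9, 1 to 19, 4 to 10 and 25 to 41 strand differences, and 28 to 43 for the F test. Same-numbered arrays of different stages had deviations correlated at -0.24 to 0.48 (median 0.01), and 7 of 15 arrays correlated best with their own number, so the numbers were not taken to pair the samples. With the replicate block 12, 19, 51, 76 and 161 probes and 1, 0, 6, 6 and 34 strand differences were called, and 194 and 38 by the F tests.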
